A study of Homo sapiens with 32 samples.

Results

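*STEAP4*, *STEAP1*, *STEAP2* and *STEAP3* encode the STEAP metalloreductases, membrane proteins named as epithelial antigens of the prostate. These proteins hold haem and FAD in the membrane and pass electrons from NADPH to iron or copper ions, which are then reduced on the far side of the membrane. STEAP3 is the ferrireductase of the endosome that reduces iron released from transferrin, most closely studied in red cell precursors. STEAP2 and STEAP4 reduce iron and copper, and STEAP1 lacks the NADPH-binding domain of its relatives and is a cell-surface antigen of prostate tumours. *STEAP4* is also known from fat cells, where it is studied in inflammation and insulin response, and its expression in prostate cells is known to respond to androgen.

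Expression was measured in LNCaP cells, an established human prostate cancer line that carries an androgen receptor and responds to androgen. The R1881 group held 4 arrays of cells kept for 72 hours in medium with charcoal-stripped serum and then given 10 nM R1881, a synthetic androgen, for 24 hours. The steroid-deplete group held 4 arrays of cells in the stripped medium alone, and all cells came from this 1 line. RNA was depleted of ribosomal RNA and hybridised to Human Exon 1.0 ST arrays, whose probe sets each test a short stretch of a gene. The methods describe quadruplicate experiments, the labels name no separate cultures, and the spread between arrays may therefore be partly technical.

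The members were all features whose annotated gene symbol is 1 of the 4 *STEAP* symbols. At gene level 3 of 16309 transcript clusters qualified, 1 each for *STEAP4*, *STEAP2* and *STEAP3*, and no cluster carried the symbol *STEAP1*. At exon level 53 of 620335 probe sets qualified, 15 for *STEAP4*, 3 for *STEAP1*, 21 for *STEAP2* and 14 for *STEAP3*. No member feature carried several symbols. The family was chosen by its values in the comparison of R1881 with steroid-deplete medium, so the differences of its members between the treatments are given as a description, without a test. All values are log2 values made by RMA (robust multichip average) unless another scale is named. Log2 values of different probe sets also depend on how strongly each probe binds. Levels are therefore compared between arrays, and the place of a gene among all clusters is only a rough guide to its level.

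Markers of the labelled cell type were present. Of 11 luminal markers, 5 were measured, and *HOXB13*, *KLK2*, *KLK3*, *EPCAM* and *CDH1* all lay above the median of all clusters in both treatments. None of the 2 basal, 4 endothelial, 3 adipocyte and 3 erythroid markers measured lay above that median in either treatment. Of 6 stromal markers, 2 lay above it after R1881 and 1 in steroid-deplete medium, and of 4 leukocyte markers 1 did in each. The median log2 value of an array ranged from 6.22 to 6.31 after R1881 and from 6.33 to 6.40 in steroid-deplete medium. R1881 replicate 4 and steroid-deplete replicate 1 stood apart from the other arrays on the second principal component, which held 8.27% of the variance. Values without both arrays are given for each gene.

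In the RefSeq annotation *STEAP4*, *STEAP1* and *STEAP2* lie in this order on chromosome 7 and *STEAP3* lies on chromosome 2. *STEAP1* and *STEAP2* are next to each other, and *ZNF804B* and *TEX47* separate them from *STEAP4*. The windows around the start sites of *STEAP4* and of *STEAP2* are shown to set the gene with the largest difference between the treatments beside its relative on the same chromosome. Each spans 300 bases around the start, most of them before it, in the direction of the gene (RefSeq, GRCh38.p14, the annotation build and not the hg18 build of the arrays). Capitals mark GC boxes, the letters GGGCGG or the reverse complement CCGCCC.
*STEAP4*, chr7:88306845-88307144, minus strand: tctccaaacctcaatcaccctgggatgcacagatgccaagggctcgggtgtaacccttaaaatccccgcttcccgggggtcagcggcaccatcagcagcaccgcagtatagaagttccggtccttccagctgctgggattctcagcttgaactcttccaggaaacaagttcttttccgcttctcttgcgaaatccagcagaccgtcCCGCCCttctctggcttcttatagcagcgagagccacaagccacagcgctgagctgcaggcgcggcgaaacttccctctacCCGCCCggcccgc
*STEAP2*, upstream start, chr7:90211490-90211789, plus strand: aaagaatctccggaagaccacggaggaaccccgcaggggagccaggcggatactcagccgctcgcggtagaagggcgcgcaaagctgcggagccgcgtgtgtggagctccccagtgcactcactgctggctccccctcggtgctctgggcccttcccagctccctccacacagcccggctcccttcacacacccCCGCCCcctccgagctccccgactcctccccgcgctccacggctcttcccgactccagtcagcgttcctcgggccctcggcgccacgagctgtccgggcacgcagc

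The *STEAP4* window held 2 GC boxes and that of *STEAP2* held 1, against 3 in the *STEAP3* window and none in that of *STEAP1*. A GC box, searched on both strands, was present in 45.0% of the 35116 promoter windows of the table. The androgen receptor binds as a pair to inverted repeats of a half-site, AGAACA or TGTTCT on the other strand. This half-site was in none of the *STEAP* windows and in 14.8% of all windows. The full repeat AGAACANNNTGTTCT, which contains the half-site, was likewise in none of them, and 1 window of all held it. The search says only that these letters are not in these 300 bases. The *STEAP4* window had a GC content of 58.7% and 18 CpG pairs, against medians of 58.7% and 14 for all windows. The upstream *STEAP2* window had 70.3% and 28 CpG pairs, and that of *STEAP3* had 78.7% and 36. A second, downstream start of *STEAP2* had a window with 33.7% GC and 2 CpG pairs. It held the letters TATAAA, which, searched on both strands, were in 11.5% of all windows.

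*STEAP1* has a near copy, *STEAP1B*, elsewhere on chromosome 7, and their start windows are shown to set the copy beside it. Capitals mark the bases at which the windows differ.
*STEAP1*, chr7:90154219-90154518, plus strand: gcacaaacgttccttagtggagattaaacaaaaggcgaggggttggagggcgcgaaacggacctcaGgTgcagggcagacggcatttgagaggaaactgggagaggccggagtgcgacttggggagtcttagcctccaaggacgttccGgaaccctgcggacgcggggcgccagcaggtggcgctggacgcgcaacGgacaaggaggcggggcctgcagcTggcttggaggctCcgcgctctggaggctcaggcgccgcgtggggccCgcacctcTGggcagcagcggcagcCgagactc
*STEAP1B*, chr7:22500139-22500438, minus strand: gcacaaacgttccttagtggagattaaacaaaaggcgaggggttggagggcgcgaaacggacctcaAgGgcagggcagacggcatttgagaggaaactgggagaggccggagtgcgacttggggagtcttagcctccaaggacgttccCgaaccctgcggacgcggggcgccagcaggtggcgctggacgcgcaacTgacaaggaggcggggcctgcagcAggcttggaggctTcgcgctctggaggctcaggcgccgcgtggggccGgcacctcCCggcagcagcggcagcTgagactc

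The windows differed at 10 of 300 positions, an identity of 96.7%. Most of each window lies before the start, so this identity does not measure how alike the transcripts are. No cluster or probe set was annotated to *STEAP1B*. Whether RNA of *STEAP1B* binds the probe sets named *STEAP1* was not tested, and *STEAP1* values are uncertain to that extent. *STEAP1* also lies within the span of *STEAP2-AS1*, an antisense gene, in the RefSeq annotation.

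*STEAP4* stood out at gene level. Its value was 10.27, 10.41, 9.97 and 9.91 on the 4 R1881 arrays, against 2.98, 3.11, 3.46 and 3.71 on the 4 steroid-deplete arrays. The groups did not overlap, and the lowest R1881 array lay 6.21 log2 units above the highest steroid-deplete array. The means were 10.14 ± 0.24 after R1881 and 3.31 ± 0.33 in steroid-deplete medium (SD, n = 4 each). The log2 fold change of 6.83 (standard error 0.15, 95% interval 6.50 to 7.16) equals 114-fold on the RMA scale, with an interval of 90.2-fold to 143-fold over the arrays. The steroid-deplete values lay near the lower end of those arrays, whose 5th percentile of all clusters was 2.78 to 2.83. Whether they were above background was not tested, and the fold is that of the deposited values. It was the highest of the 16309 clusters. Of the 3 member clusters it was the 1 whose groups did not overlap, whereas R1881 lay above without overlap in 11.2% of all clusters and below in 18.7%. With limma, 1.94% of all clusters were called higher and 2.04% lower at an adjusted p below 0.005 with a 2-fold change or more. *STEAP4* exceeded 97.3 to 98.3% of the clusters of each R1881 array, against 6.32 to 12.4% of those of each steroid-deplete array. Without R1881 replicate 4 and steroid-deplete replicate 1 the log2 fold change was 6.79. RNA was taken from whole cultures, in which fewer cells of a type and less RNA per cell cannot be told apart.

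The same contrast was seen in the deposited Iter-PLIER values, an intensity on a linear scale. *STEAP4* had 3074, 3134, 2523 and 2633 units on the R1881 arrays, against 6.93, 3.04, 6.10 and 11.05 units on the steroid-deplete arrays. The steroid-deplete values lie so close to 0 that the fold depends on the pseudocount. With 16 added before the log2 the log2 fold change was 6.98, and with 1 added it was 8.61.

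**Figure D1:**
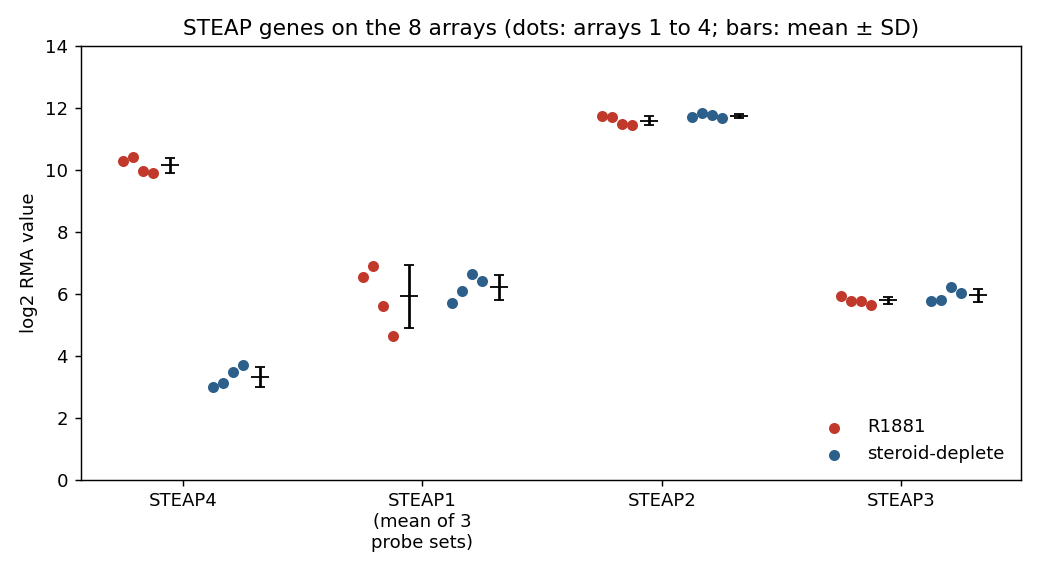
Log2 RMA values (vertical axis) of the *STEAP* genes on the 4 R1881 arrays (red) and the 4 steroid-deplete arrays (blue), with the mean and SD of each group as bars; *STEAP1* has no transcript cluster and is shown as the mean of its 3 probe sets. *STEAP4* alone shows groups that do not overlap, at 9.91 to 10.41 after R1881 and 2.98 to 3.71 in steroid-deplete medium.

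*STEAP2*, the paralog studied mainly in prostate epithelium, exceeded 99.69 to 99.75% of the clusters of each R1881 array, against 99.87 to 99.88% of those of each steroid-deplete array. Its gene-level value was 11.72, 11.72, 11.49 and 11.43 on the R1881 arrays, against 11.71, 11.82, 11.75 and 11.68 on the steroid-deplete arrays. R1881 replicates 3 and 4 lay below all steroid-deplete arrays, while R1881 replicates 1 and 2 lay among them. The means were 11.59 ± 0.15 after R1881 and 11.74 ± 0.06 in steroid-deplete medium (SD, n = 4 each). The log2 fold change was -0.15, with a standard error of 0.09 and a 95% interval from -0.34 to 0.04. It was -0.11 without R1881 replicate 4 and steroid-deplete replicate 1. Scaling moved this small difference. With the arrays centred on their medians it was -0.05, and with the deposited values quantile-normalised once more it was -0.44 (interval -0.60 to -0.29).

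*STEAP3*, the transferrin-cycle ferrireductase gene, had a gene-level value of 5.93, 5.78, 5.78 and 5.64 on the R1881 arrays, against 5.76, 5.81, 6.20 and 6.03 on the steroid-deplete arrays. The groups overlapped, with steroid-deplete replicates 3 and 4 above all R1881 arrays. It exceeded 37.6 to 43.0% of the clusters of each R1881 array, against 38.8 to 46.4% of those of each steroid-deplete array. The means were 5.78 ± 0.12 after R1881 and 5.95 ± 0.20 in steroid-deplete medium (SD, n = 4 each). The difference was -0.17 on the log2 scale, with a standard error of 0.11 and a 95% interval from -0.40 to 0.06. It was -0.18 without R1881 replicate 4 and steroid-deplete replicate 1. In Iter-PLIER units *STEAP3* had 137, 112, 94.0 and 69.3 on the R1881 arrays, against 112, 148, 184 and 131 on the steroid-deplete arrays. On that scale, with 16 added, the log2 fold change was -0.44 (interval -0.85 to -0.02), and with 1 added it was -0.50 (interval -1.01 to 0.02).

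*STEAP1*, the prostate tumour antigen gene, could be read only from its 3 probe sets. Probe set 3011845 was the brightest of them under both treatments, with 9.02, 9.60, 8.88 and 8.73 on the R1881 arrays, against 8.41, 8.89, 9.14 and 8.70 on the steroid-deplete arrays. This gave a log2 fold change of 0.27 with a standard error of 0.25. Probe set 3011846 had 4.54, 5.37, 4.95 and 3.28 on the R1881 arrays, against 2.83, 4.45, 5.92 and 4.99 on the steroid-deplete arrays, a log2 fold change of -0.01 (standard error 0.61). These values spread by more than 2 log2 units within each treatment.

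Probe set 3011848 of *STEAP1* had 6.05, 5.70, 3.02 and 1.87 on the R1881 arrays, against 5.88, 4.95, 4.83 and 5.55 on the steroid-deplete arrays. The low R1881 mean of this probe set came from replicates 3 and 4 alone, and the log2 fold change of -1.15 had a standard error of 0.80. Averaged over the 3 probe sets, *STEAP1* had 6.53, 6.89, 5.62 and 4.63 on the R1881 arrays, against 5.71, 6.10, 6.63 and 6.41 on the steroid-deplete arrays. The means were 5.92 ± 1.01 after R1881 and 6.21 ± 0.40 in steroid-deplete medium (SD, n = 4 each), with a log2 fold change of -0.30 (standard error 0.41, 95% interval -1.19 to 0.59). Without R1881 replicate 4 it was 0.13, and without that array and steroid-deplete replicate 1 it was -0.03. The groups overlapped, and as a ratio of R1881 to steroid-deplete the interval of *STEAP1* ran from 0.44 to 1.51.

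The changes of the paralogs were set against each other within arrays. At gene level the change of *STEAP4* exceeded that of *STEAP2* by 6.98 log2 units (standard error 0.19, 95% interval 6.51 to 7.44) and that of *STEAP3* by 7.00 (standard error 0.14, interval 6.65 to 7.35). The changes of *STEAP2* and *STEAP3* differed by 0.02 (standard error 0.12, interval -0.28 to 0.32). On means over probe sets, which allow *STEAP1* to be included, the change of *STEAP4* was 5.58 and exceeded that of *STEAP1* by 5.88 (standard error 0.45, interval 4.78 to 6.97). *STEAP1* differed in change from *STEAP2* by -0.19 (interval -1.38 to 1.00) and from *STEAP3* by -0.20 (interval -1.55 to 1.14). These are descriptions of 6 pairs, without a test.

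In 14 of the 15 probe sets annotated to *STEAP4* all R1881 arrays lay above all steroid-deplete arrays and the difference was at least 2-fold, and in the other the groups overlapped. Over all probe sets, 4.57% had R1881 above without overlap, 6.82% had R1881 below, and 1.55% and 2.28% also differed by at least 2-fold in these directions. The log2 fold change of the *STEAP4* probe sets ranged from 0.28 to 9.01 with a median of 6.29, and 11 of the 15 differed by at least 16-fold. The lowest of these 11, probe set 3060353 at 4.02, had rank 164 from the highest rise among all 620335 probe sets. Of the 10 highest log2 fold changes among the 620335 probe sets, 7 were in *STEAP4*, and of the 20 highest 10 were.

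Probe set 3060344 had the highest log2 fold change in the table, with 11.62, 11.58, 11.20 and 11.29 on the R1881 arrays, against 2.51, 1.72, 2.69 and 2.75 on the steroid-deplete arrays. The difference was 9.01 log2 units, with a standard error of 0.26. Probe set 3060343 had 12.17, 12.22, 11.91 and 11.98 on the R1881 arrays, against 3.17, 3.79, 4.16 and 4.55 on the steroid-deplete arrays, a log2 fold change of 8.15 (standard error 0.28). Without androgen the values of 3060344 lay near the lower end of the arrays, where the 5th percentile of all probe sets was 1.88 to 1.95. Whether they were above background was not tested, and the size and rank of this difference are those of the deposited values. Probe set 3060337 was the brightest *STEAP4* probe set after R1881, at 12.51, 12.53, 12.40 and 12.38, against 5.24, 5.42, 3.91 and 4.58 on the steroid-deplete arrays. Its log2 fold change was 7.67 (standard error 0.31).

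Other *STEAP4* probe sets differed less between the treatments. Probe set 3060346 had 2.23, 1.88, 1.94 and 2.38 on the R1881 arrays, against 1.68, 1.44, 1.85 and 2.35 on the steroid-deplete arrays. It stayed near the lowest values of the arrays under both treatments, with a log2 fold change of 0.28 (standard error 0.24). Probe set 3060354 had 8.26, 8.66, 8.51 and 8.73 on the R1881 arrays, against 6.35, 7.40, 6.66 and 6.21 on the steroid-deplete arrays. It was the *STEAP4* probe set with the highest steroid-deplete mean, 6.65 ± 0.53 (SD, n = 4), and its log2 fold change was 1.89 (standard error 0.27). Probe set 3060338 had 5.86, 6.02, 6.05 and 4.25 on the R1881 arrays, against 1.44, 1.68, 1.77 and 2.77 on the steroid-deplete arrays, with a difference of 3.63 (standard error 0.43). R1881 replicate 4 and steroid-deplete replicate 4 were the arrays nearest to each other in this probe set.

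**Figure D2:**
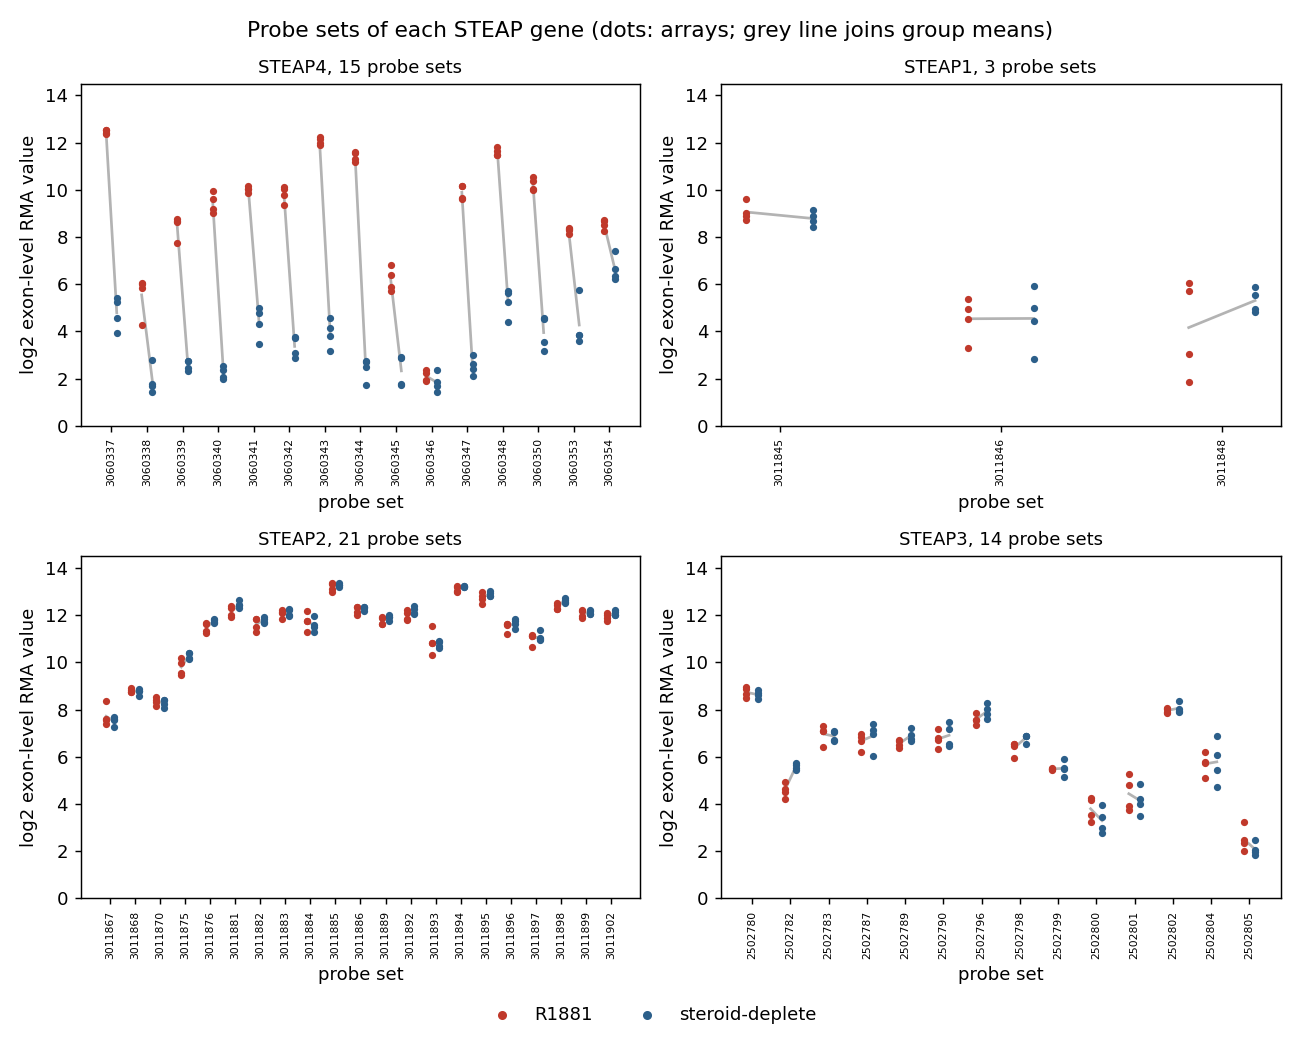
Log2 exon-level RMA values (vertical axis) of the 53 probe sets (horizontal axis, by identifier) on the R1881 arrays (red, left of each pair) and the steroid-deplete arrays (blue, right), with a grey line between group means. In *STEAP4* the red points lie above the blue without overlap in 14 of 15 probe sets. In the other genes the pairs lie near the same height, apart from *STEAP3* probe set 2502782 and *STEAP1* probe set 3011848, whose R1881 points are widely spread. The groups of *STEAP3* probe sets 2502782 and 2502798 and of *STEAP2* probe set 3011876 do not overlap.

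Relative to the gene-level change, the *STEAP4* probe sets differed from 2.18 above (3060344, standard error 0.19) to 6.55 log2 units below it (3060346). The next were 3060343, 1.33 above the gene, and 3060354, with a relative change of -4.94 (standard error 0.35). Of the 15, 7 lay within 1 log2 unit of the gene. The 21 *STEAP2* and 14 *STEAP3* probe sets all lay within 1 unit of their gene, as most probe sets of the arrays did. Among 206492 probe sets with a gene-level value, 0.84 in 3060337 had rank 3452 from the highest and -0.93 in 3060339 rank 203917. Probe set positions in the transcripts were not used here, and whether the *STEAP4* probe sets with small changes read another transcript, another gene's RNA or no RNA was not tested.

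The 21 *STEAP2* probe sets scattered little around the gene-level change, which is itself made from core probe sets on the same arrays. The log2 fold changes of the 21 ranged from -0.47 to 0.20 with a median of -0.12, 16 below and 5 above 0. Among all 620335 probe sets a log2 fold change of -0.01, that of *STEAP1* probe set 3011846, had rank 309027 from the highest, near the middle. Of the 21, 1 had all R1881 arrays below all steroid-deplete arrays, against 6.82% of all probe sets. The lowest was that of probe set 3011875, with 10.20, 9.97, 9.56 and 9.48 on the R1881 arrays, against 10.14, 10.19, 10.38 and 10.39 on the steroid-deplete arrays (log2 fold change -0.47, standard error 0.22). Probe set 3011876 was the one without overlap, at 11.66, 11.60, 11.26 and 11.34 on the R1881 arrays, against 11.71, 11.85, 11.68 and 11.81 on the steroid-deplete arrays. Its log2 fold change was -0.30 (standard error 0.19). The third lowest was that of 3011881, -0.29 (standard error 0.19), where R1881 replicates 1 and 2 again lay among the steroid-deplete arrays.

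The highest *STEAP2* change was that of probe set 3011867, with 7.59, 7.39, 7.54 and 8.34 on the R1881 arrays, against 7.66, 7.26, 7.60 and 7.54 on the steroid-deplete arrays. Its log2 fold change of 0.20 (standard error 0.24) came from R1881 replicate 4, and its relative change, 0.35, was also the highest of the gene. Probe sets 3011884 (log2 fold change 0.16, relative change 0.31) and 3011893 (0.11) followed, each with R1881 replicate 3 as the highest array. In 3 probe sets (3011867, 3011868 and 3011870) every array lay under 9, at 7.39 to 8.91 after R1881 and 7.26 to 8.89 in steroid-deplete medium, and all 3 had log2 fold changes above 0. The other 18 ran from 9.48 to 13.37 after R1881 and from 10.14 to 13.37 in steroid-deplete medium. The relative change was lowest for 3011875 (-0.33) and next lowest for 3011876 (-0.15).

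The 14 *STEAP3* probe sets had log2 fold changes from -1.03 to 0.51 with a median of -0.09, 9 below and 5 above 0. In 2 of them all R1881 arrays lay below all steroid-deplete arrays, against 6.82% of all probe sets. The lowest was that of probe set 2502782, with 4.21, 4.63, 4.92 and 4.50 on the R1881 arrays, against 5.67, 5.75, 5.52 and 5.42 on the steroid-deplete arrays. Its log2 fold change was -1.03 (standard error 0.21). It was the 1 of 53 member probe sets lower by at least 2-fold without overlap, against 2.28% of all probe sets. Probe set 2502798 had 6.53, 6.44, 6.54 and 5.97 on the R1881 arrays, against 6.55, 6.87, 6.90 and 6.86 on the steroid-deplete arrays (log2 fold change -0.43, standard error 0.21). Here the nearest arrays of the groups read 6.54 and 6.55. The third lowest was that of 2502796, -0.35 (standard error 0.21), where the groups overlapped.

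The highest *STEAP3* changes were those of 3 dim probe sets. Probe set 2502800 had 3.51, 3.25, 4.24 and 4.18 on the R1881 arrays, against 3.97, 2.97, 2.76 and 3.45 on the steroid-deplete arrays (log2 fold change 0.51, standard error 0.32). Probe sets 2502805 and 2502801 followed with 0.43 (standard error 0.28) and 0.30 (standard error 0.38), and in all 3 the groups overlapped. Relative to the gene, 2502782 was lowest at -0.86 (standard error 0.23) and 2502798 next at -0.26, while 2502800 and 2502805 were highest at 0.68 and 0.60.

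**Figure D3:**
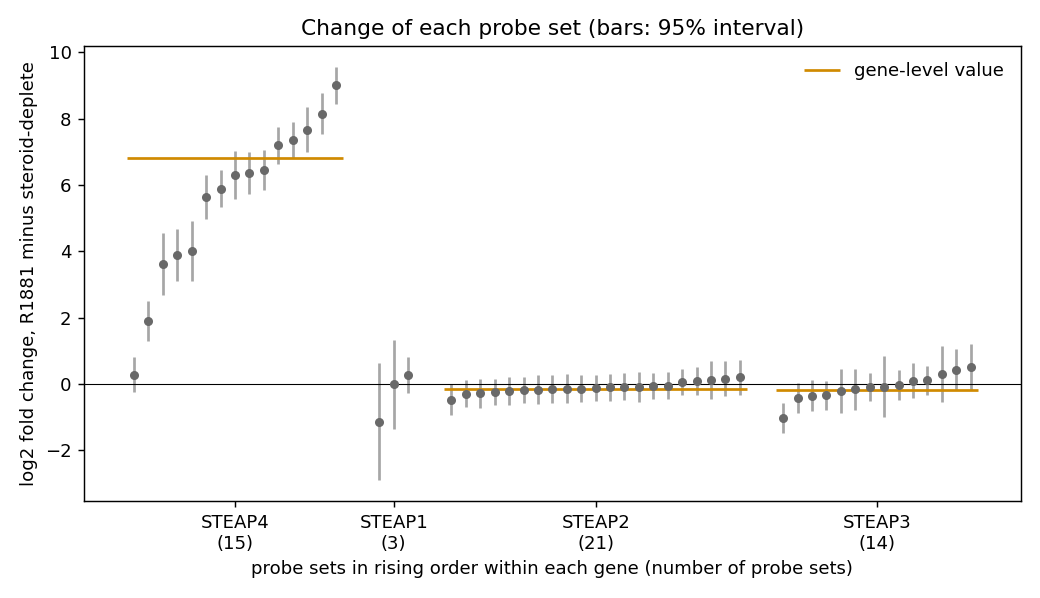
Log2 fold change of each probe set, R1881 minus steroid-deplete (vertical axis), in rising order within each gene, with 95% intervals as bars and the gene-level value as an orange line; *STEAP1* has no gene-level value. The *STEAP4* probe sets run from 0.28 to 9.01 around a gene-level 6.83, whereas those of *STEAP2* stay between -0.47 and 0.20.

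R1881 replicates 3 and 4 read lower than replicates 1 and 2 in much of the family, a pattern noticed after the values had been seen. Both lay below both of the others in 10 of 15 *STEAP4*, 2 of 3 *STEAP1* and 14 of 21 *STEAP2* probe sets, 66.7% of each. In *STEAP3* this held for 2 of 14, and the opposite for 6 of 14, or 42.9%. Over all probe sets the shares were 17.1% lower and 15.96% higher. Probe sets of a gene share the same RNA and are not independent, and what sets these arrays apart was not tested.

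Other measured genes of electron transfer to metals and of iron, copper and cofactor handling had log2 fold changes from -1.23 to 0.77. Of 87 listed genes, 62 had a transcript cluster with a single symbol. By limma, none of the 62 was called higher and 1 was called lower by the 2-fold limit and the adjusted p of 0.005. Of all clusters, 1.94% were called higher and 2.04% lower by the same limits. At an adjusted p under 0.05 8 were higher and 12 lower, 12.9% and 19.4% of those measured. Over all clusters these shares were 10.5% and 19.8%, so the lists as a whole stood near the background. Their median log2 fold change was -0.03, against -0.003 for all clusters.

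The gene called lower was *CYB561A3*, a reductase of the cytochrome b561 group that reduces iron in lysosomes. Its value was 8.02 ± 0.08 after R1881 and 9.25 ± 0.09 in steroid-deplete medium (SD, n = 4 each), and it fell by 1.23 on the log2 scale (standard error 0.08, limma adjusted p = 6.1e-08). In the same group *CYB561D2*, another transmembrane reductase gene, rose by 0.77 on the log2 scale (standard error 0.12, limma adjusted p = 0.00027). Of the 6 listed genes of this group 5 were measured. These cytochrome b561 genes differ from the *STEAP* genes in taking electrons from ascorbate.

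Among 13 genes of iron uptake and the transferrin cycle, 1 rose and 2 fell at an adjusted p under 0.05. *DNM2*, the dynamin of endocytosis, rose by 0.55 (standard error 0.11, limma adjusted p = 0.0015). *HFE*, whose product binds the transferrin receptor, had one of -0.82 (standard error 0.11, limma adjusted p = 4.9e-05). Of 17 measured genes of iron storage, export and sensing, 1 rose and 3 fell. Of the 3, *FTL*, a ferritin chain gene, lost its call under 9 of 15 alternatives and *SLC40A1*, the iron exporter gene, under 5 of 15. *ACO1*, the iron-sensing cytosolic aconitase, had a log2 fold change of -0.56 (limma adjusted p = 0.00023). *BLVRB*, a biliverdin reductase, had one of 0.30 (limma adjusted p = 0.0497), with groups that overlapped and a call that was lost under 10 of the alternatives.

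In mitochondrial iron and iron-sulphur cluster assembly none of 7 measured genes rose and 3 fell, *LYRM4*, a subunit of the cysteine desulphurase complex, the most at -0.62 (limma adjusted p = 0.00041). Copper genes moved in both directions, 2 up and 2 down of 8 measured. Of those down, *SOD1*, a copper-zinc dismutase gene, lost its call under 11 of 16 alternatives, and of those up *SLC31A2*, a copper transporter gene, under 1 of 15. The copper exporters lay at both ends of this list, with *ATP7B* at 0.73 (limma adjusted p = 6.3e-05) and *ATP7A* at -0.46 (limma adjusted p = 0.0080). In haem synthesis *FECH*, the enzyme that inserts iron to form haem, rose by 0.61 (limma adjusted p = 6.6e-05). *UROS*, an earlier enzyme of the path, had a log2 fold change of -0.22 (limma adjusted p = 0.045). The *UROS* call was lost under 11 of the alternatives. *IDH1*, a source of NADPH in the cytosol, was the 1 of 5 measured NADPH and FAD genes past the threshold, at 0.43 (limma adjusted p = 0.0077).

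**Figure D4:**
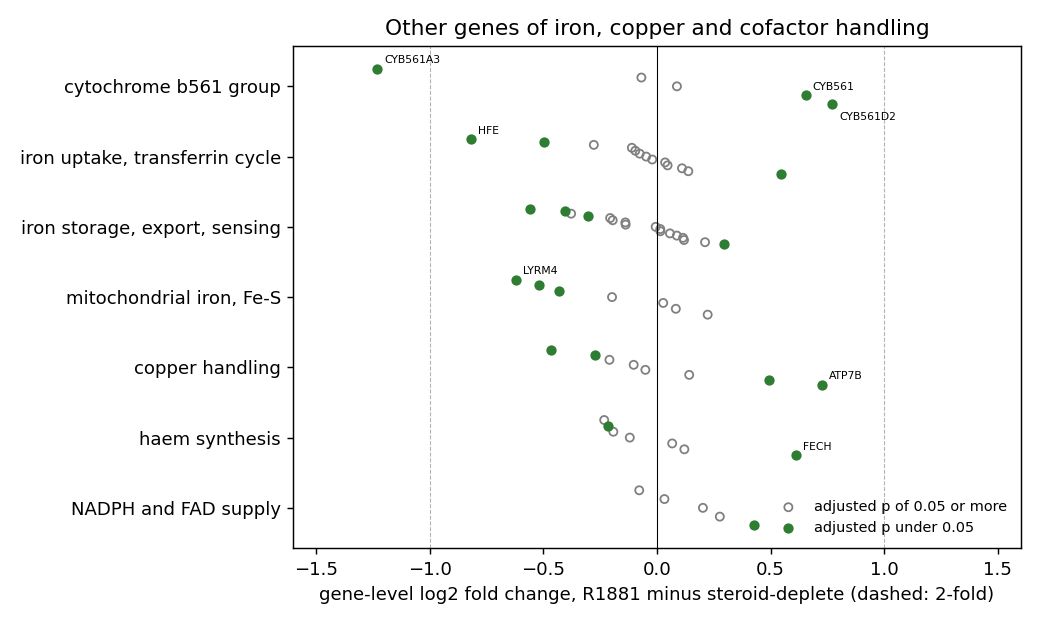
Gene-level log2 fold change, R1881 minus steroid-deplete (horizontal axis), of the 62 measured genes of iron, copper and cofactor handling by list (vertical axis), with filled points for a limma adjusted p under 0.05 and dashed lines at 2-fold. Only *CYB561A3*, at -1.23, lies outside the dashed lines.

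The genes beside the *STEAP* genes gave a local view. Of the 22 protein-coding genes within 5 places on either side, 17 were measured, and 2 rose and 4 fell at a limma adjusted p under 0.05. These shares, 11.8% and 23.5%, lay near the 10.5% and 19.8% of all clusters. *DBI*, an acyl-CoA binding protein gene in the second place beyond *STEAP3*, was 10.44 ± 0.29 after R1881 and 7.70 ± 0.13 in steroid-deplete medium (SD, n = 4 each). Its log2 fold change of 2.73 (standard error 0.13, limma adjusted p = 2.2e-09) stood near a *STEAP3* change of -0.17. *ADAM22*, a catalytically inactive member of the ADAM family in the second place before *STEAP4*, was 5.28 ± 0.18 after R1881 and 7.11 ± 0.21 in steroid-deplete medium (SD, n = 4 each). It fell by 1.83 on the log2 scale (standard error 0.12, limma adjusted p = 4.1e-08), opposite in sign to that of *STEAP4*.

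Between *ADAM22* and *STEAP4* lies *SRI*, a calcium-binding protein gene, with a log2 fold change of -0.28 (limma adjusted p = 0.049, lost under 11 of the alternatives). On the other side of *STEAP4*, *ZNF804B* and *TEX47* had 0.10 and -0.12, with overlapping groups. *CLDN12*, a claudin gene beyond *STEAP2*, rose by 0.93 (standard error 0.10, limma adjusted p = 6.8e-06), under the 2-fold limit. Before *STEAP3*, *CCDC93*, of endosomal recycling, and *INSIG2*, of sterol sensing, fell by 0.83 and 0.71 on the log2 scale. The 11 neighbours that did not pass the test, *ZNF804B* and *TEX47* among them, had log2 fold changes from -0.12 to 0.31.

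Likeness of pattern was described by Pearson's r over the 8 arrays, among 13481 other clusters with 1 symbol. For *STEAP4* it mostly reflects the difference between the 2 treatments, and 112 clusters had r above 0.99. The 5 most alike were *SLC15A2* (r = 0.9991, log2 fold change 2.07), *SEC24D* (2.34), *PART1* (2.84), *SLC41A1* (2.29) and *SCAP* (1.63). They encode a peptide transporter, a vesicle coat subunit, a prostate transcript without a protein product, a magnesium transporter and the sterol-sensing escort of SREBP. For *STEAP2* the most alike were *YTHDF3* (r = 0.970), *ZNF354C* (r = 0.965) and *ZFR* (r = 0.965), and no cluster had r above 0.99. For *STEAP3* they were *MAPKAPK2* (r = 0.976), *NUDCD3* (r = 0.973) and *ACAD9* (r = 0.969). The arrays share 1 cell line and 2 treatments, so these values carry no test.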

How the data were processed

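The values are those of 8 Human Exon 1.0 ST arrays of LNCaP cells, 4 per treatment. The deposited gene-level log2 values were made by the authors with RMA from the core probe sets, with antigenomic probes as background and normalisation by quantiles. Exon-level log2 values, labelled RMA, were deposited too, and their probe set class and settings are not given in the sources used here. The deposited Iter-PLIER values are intensity on a linear scale and served as alternatives. The exon-level ones carry that label, while the methods name PLIER. The submitters' processing notes name hg18 and give no version of RMA or PLIER. For its gene-level estimates in the search for isoforms the study kept clusters with at least 11 core probes. It gives 16309 as the number that passed, which is also the number of clusters in the gene-level values used here. Shares of all clusters are shares of these 16309. Whether this filter left out *STEAP1* or unmeasured listed genes was not tested. Detection calls were not used here.

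Members were found by gene symbol, with older symbols updated through a RefSeq table, and no coordinate was used to find them. Positions in that table gave the neighbouring genes and the place of *STEAP1* within *STEAP2-AS1*. Members, gene lists and markers were chosen with earlier results of these data known. Gene-level values were fitted with limma 3.58.1 in R 4.3.3 over 16309 clusters (Benjamini-Hochberg adjustment), and exon-level values over 620335 probe sets, which gave the standard errors and intervals. For the members no p is given. Listed genes were called at an adjusted p under 0.005 and 2-fold, and also counted at 0.05. Named genes were those called and the largest change past 0.05 in each direction of each list, the neighbours, the 5 clusters most like *STEAP4* and 3 most like each other member, and for each member the 3 highest and 3 lowest probe set changes and 2 highest and lowest relative changes, the change of a probe set minus that of its gene. *FTL*, *SLC40A1*, *SOD1* and *SLC31A2* were named after their values had been seen. Because *STEAP1* has no cluster, the mean of its 3 probe sets took the place of the planned gene-level value. Both fits were first checked on simulated data of known changes. Alternatives were Iter-PLIER values with a pseudocount of 16 or 1, means over probe sets, centring, quantile normalisation, a filter on dim features, an intensity trend, the methods' t-test, a replicate block and leaving out each array. Version 1.17.8 of data.table read the files.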

Additional observations from a re-analysis of the deposited data

Results flagged for a closer look

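In 8 of 112 groups of 4 arrays (7.14%), a member had an array far from the other 3 by Dixon's criterion. For independent, normally distributed values chance gives this in about 1 in 20 groups. The groups share arrays and RNA, and the share over all features was not counted, so 7.14% is not read as a trait of the members. R1881 replicate 4 was the low array in 5 of the 8 groups. In *STEAP4* it read 4.25 in probe set 3060338, where the others began at 5.86, and 7.73 in probe set 3060339, where the others began at 8.65. In *STEAP2* it read 11.21 in probe set 3011896 and 10.64 in probe set 3011897, against lowest values of 11.60 and 11.10 on the other R1881 arrays. In *STEAP3* it read 5.97 in probe set 2502798, against 6.44 on the nearest R1881 array.

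Steroid-deplete replicate 2 was the high array in *STEAP4* probe set 3060353, at 5.75 against 3.87 on the nearest array, and in *STEAP2* probe set 3011897, at 11.37 against 11.02. Steroid-deplete replicate 1 was the low array in *STEAP3* probe set 2502798, at 6.55 against 6.86. In that probe set the groups did not overlap, with R1881 below, and both groups held a low array.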

How the results depend on the processing

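The changes of *STEAP4*, *STEAP2* and *STEAP3* kept their sign in all alternatives run, and that of *STEAP1* turned without R1881 replicate 4. The *STEAP4* change of 6.83 was 8.61 with Iter-PLIER and a pseudocount of 1, and 5.58 as a mean over probe sets, which includes its dim probe sets. That of *STEAP2* was -0.44 after quantile normalisation, and that of *STEAP3* was -0.44 (interval -0.85 to -0.02) and -0.50 (interval -1.01 to 0.02) with Iter-PLIER and pseudocounts of 16 and 1. With Iter-PLIER 924 clusters were called lower, against 333, and 444 higher, against 317. Of the listed genes 2 were then called higher (*ATP7B*, *CYB561D2*) and 2 lower (*CYB561A3*, *HFE*). The cause was not tested. Centring moved the median change of all clusters by 0.10, to 372 calls higher and 259 lower, so that 59.0% of calls were higher, against 48.8%.

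Leaving out each array in turn gave 6.72 to 6.96 for *STEAP4*, -0.62 to 0.13 for *STEAP1*, -0.19 to -0.10 for *STEAP2* and -0.23 to -0.08 for *STEAP3*. The clusters called higher ran from 295 to 334 and those called lower from 304 to 391, and the listed genes stayed at 0 and 1. The *STEAP4* probe sets at least 2-fold higher without overlap stayed at 14. Leaving out an array cannot make separate groups overlap, so this count could fall only through the 2-fold limit. The count of such probe sets in each other member stayed at 0. Same-numbered arrays correlated by -0.10 to 0.095 after removal of group means, and 1 of 8 correlated best with its own number, so the numbers were not used as pairs. The replicate block gave 6.83, -0.30, -0.15 and -0.17 for *STEAP4*, *STEAP1*, *STEAP2* and *STEAP3*, and 317 and 333 calls. Among genes past an adjusted p of 0.05 that were named, *BLVRB*, *UROS*, *SRI*, *FTL*, *SLC40A1*, *SOD1*, *SLC31A2*, *ATP7A* and *IDH1* lost their call in at least 1 alternative. The alternatives for the *STEAP1* mean and the fit without R1881 replicate 4 and steroid-deplete replicate 1 were chosen after seeing the data. The number of arrays limits the precision, and dim probe sets read near the lowest values of the arrays.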
